A study of Mus musculus with 12 samples.

Results

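The Argonaute and TNRC6 genes code for the proteins at the core of miRNA-guided silencing, and their transcripts were followed across 12 single-colour Agilent arrays of DKO172 cells. All 7 genes, Ago1, Ago2, Ago3, Ago4, Tnrc6a, Tnrc6b and Tnrc6c, were found through the RefSeq accessions of the array's non-control probes. They have 10 of the 55681 probes, and 9 of these passed the filter on dim probes, as did 33024 probes in all. Each gene entered the tests through its brightest probe, among 24184 genes, and those 7 probes were well above background on all 12 arrays. The remaining probe, 1 of a pair for Ago4, was well above background on 1 GFP array only and was not tested.

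DKO172 is a mouse line from a fallopian tumor of a female. As background and not from the labels, the line's own Dicer1 is knocked out. The cells received 2 µg of a pLD-hygro-EnVM plasmid that expresses DICER1 with the hotspot substitution D1709N, DICER1 with the hotspot substitution G1809R, wild-type DICER1 (WT), or, for the control group, GFP. Each of these 4 groups has 3 arrays. Hygromycin selection (300 µg/ml, 84 h) was common to all groups, and RNA was taken 108 h after transfection. The comparisons ask how each construct changed gene expression relative to GFP and how the mutants differed from WT. Nothing in the labels says that the replicates were separate cultures. The p-values therefore set each difference against the spread of these samples, and that spread may be technical. In bulk RNA, fewer cells of a type cannot be told apart from less RNA per cell.

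Argonaute proteins hold a mature miRNA and read the target transcript through its seed. AGO2 is the family member that can cut a paired target itself. The TNRC6 proteins, relatives of the fly protein GW182, bind Argonaute through repeated GW motifs and bring the CCR4-NOT and PAN2-PAN3 deadenylases to the target, whose poly(A) tail is then shortened before decapping and decay. DICER1 cuts the precursor hairpins that give Argonaute its guides, and its RNase IIIb domain, which holds both hotspot residues, releases the arm that gives 5p miRNAs.

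The miRNAs themselves were not measured on these arrays, and no 3′ untranslated region was searched. An earlier analysis of the same arrays had placed Tnrc6a, the member with the largest difference, on a list of targets of the miR-30 family. The family is therefore shown as the kind of guide whose release depends on the mutated domain. That list was not checked here, and a part of the family in the Tnrc6a difference was not tested. The precursor of miR-30a lies at chr1:23272269-23272339 on the plus strand (RefSeq, build GRCm38.p6), with the arms that give the mature 5p and 3p miRNAs in capitals. The family is shown only in part. Mature 5p sequences of it are shown for 3 names, from 4 loci on chromosomes 1 and 4. They share the seed GUAAACA at bases 2 to 8, written in capitals.
Mir30a precursor: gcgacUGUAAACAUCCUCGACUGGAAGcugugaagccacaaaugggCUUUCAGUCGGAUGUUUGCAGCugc
mmu-miR-30a-5p: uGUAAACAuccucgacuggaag
mmu-miR-30c-5p: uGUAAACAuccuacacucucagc
mmu-miR-30e-5p: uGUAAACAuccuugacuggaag

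Levels are log2 intensities less the array's own 75th percentile, so 0 stands for that percentile and a step of 1 for a 2-fold change. They can be set side by side within a probe and not between probes. The probe of the mouse Dicer1 gene averaged 0.82 in D1709N, 0.92 in G1809R, 0.27 in WT and 1.13 in GFP. Whether it reads the deleted part of the gene or the plasmid transcript is not known here, so it does not check the labels. Replicate 1 of each group was hybridized on slide 1 and replicates 2 and 3 on slide 2. The share of probes well above background was 68.1% to 82.7% on slide 1 and 49.5% to 62.6% on slide 2. WT replicate 1 had the highest share, and WT arrays correlated with it at 0.977 and 0.980. Of the oviduct markers Pax8, Pax2, Wt1, Ovgp1, Emx2, Esr1 and Foxj1, 4 of 7 were well above background on all 12 arrays (Wt1, Ovgp1, Emx2 and Esr1), while Pax8 and Foxj1 were so on 4 arrays each. The log2 of the oviduct list's summed levels was 5.60 to 5.78 in D1709N, 5.36 to 5.86 in G1809R, 5.19 to 5.29 in WT and 5.32 to 5.65 in GFP. Such a sum mostly follows its brightest probe, here Wt1, with means of 5.61, 5.52, 5.06 and 5.31 in that order. Ovgp1, Emx2 and Esr1 averaged 1.00, 0.06 and 0.34 in WT. They were lower in D1709N (0.76, −0.36 and −0.02) and G1809R (0.80, −0.32 and −0.18), and averaged 1.09, −0.36 and 0.40 in GFP. Of 6 endothelial markers, Kdr and Pecam1 were well above background on all 12 arrays, Vwf on 11, Tek on 1, and Cdh5 and Emcn on 0. The log2 of their summed levels, which mostly follows Kdr, was 3.34 to 4.26 in D1709N, 3.36 to 4.25 in G1809R, 3.96 to 4.67 in WT and 3.88 to 4.71 in GFP. Of the leukocyte markers, Itgam, Cd14 and Cd3e were so on all 12, Ptprc on 5 and Lyz2 on 1. The log2 of the leukocyte list's summed levels, which mostly follows Itgam, was 3.93 to 4.32 in D1709N, 3.94 to 4.33 in G1809R, 3.78 to 4.25 in WT and 3.66 to 4.15 in GFP. Smooth muscle markers had a median difference of 0.81 for WT minus GFP, −1.02 for D1709N minus WT and −1.31 for G1809R minus WT. Without a block, limma called 0 of 5 at an adjusted p under 0.05. With the replicate number as a block, 4 were called lower in each mutant than in WT. Over all genes that block called 15.5% and 12.7%, in either direction. For 8 mesenchymal markers these medians were −0.02, −0.36 and −0.35, and for 7 epithelial ones 0.10, 0.09 and 0.04. Without a block 1, 1 and 0 mesenchymal markers were called, all lower, and 0 epithelial ones (2.95%, 1.66% and 1.64% of all genes in either direction). With the replicate block 2 mesenchymal markers were called higher and 3 lower in each comparison (17.8%, 15.5% and 12.7% of all genes). Of the epithelial ones it called 1, 3 and 1 higher, and 1 lower for D1709N minus WT. The part of these cell types in the results was not tested.

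With wild-type DICER1, the transcripts of 2 TNRC6 genes fell against GFP. Tnrc6a was 2.25-fold lower and Tnrc6b 1.76-fold lower. No such fall was called for either mutant, and Tnrc6a was higher with both mutants than with WT. Tnrc6b was called higher in the mutants than in WT only with the replicate number as a block. No Argonaute gene was called in the fit without a block. Ago2 and Ago1 were called lower with WT, by their brighter probes, once the replicate number was taken into account as a block. Their second probes were not called with that block, at 0.08 for Ago2 and −0.32 for Ago1 (limma adjusted p = 0.606 and 0.432). With the slide as the block, Ago1 was not called (limma adjusted p = 0.0522). In the WT against GFP comparison, 2 of the 7 genes were called lower (limma, Benjamini-Hochberg adjusted p under 0.05 over all genes) and 0 higher. Over all genes that call was made for 1.76% lower, 1.19% higher and 2.95% in either direction. With the block 4 of 7 were called lower and 0 higher, against 8.6% of all genes lower, 9.18% higher and 17.8% in either direction. The arrays of the groups did not overlap for 3 of the 7 genes, all lower with WT, against 10.2% of all genes.

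**Figure D1:**
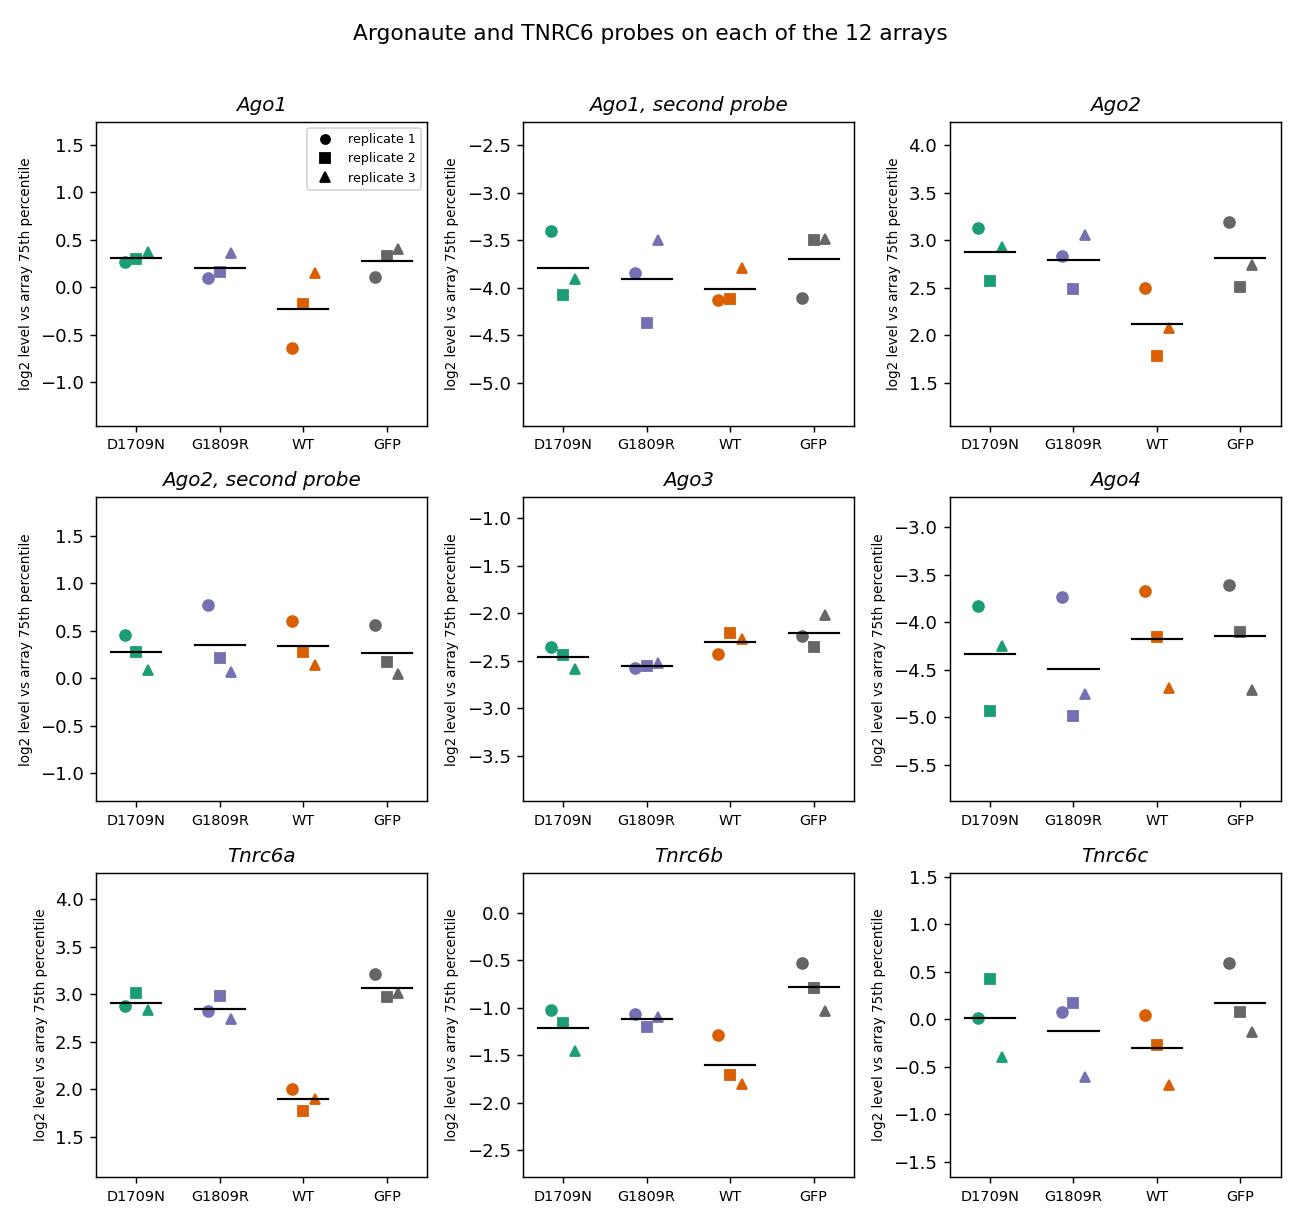
Log2 level relative to the array's 75th percentile for the 9 Argonaute and TNRC6 probes that passed the filter, on each array of D1709N, G1809R, WT and GFP; symbols are replicates 1 to 3 and bars are group means, and every panel spans the same number of log2 units. For Tnrc6a the 3 WT arrays, at 1.77 to 2.01, lie below every array of the other groups, and the second Ago2 probe shows no such gap.

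Tnrc6a codes for the GW182 homolog of the family. Its probe A_51_P509229 read 2.88, 3.01 and 2.83 in D1709N, 2.82, 2.98 and 2.74 in G1809R, 2.01, 1.77 and 1.90 in WT and 3.21, 2.97 and 3.02 in GFP, for replicates 1, 2 and 3. The WT arrays were the 3 lowest of the 12, with a gap to the next array that was wider than the range of the WT arrays. The D1709N and G1809R arrays overlapped with each other and with GFP. The WT minus GFP difference was −1.17 ± 0.12 on the log2 scale (SE, limma adjusted p = 0.00211, and 0.000469 with the replicate block), and was below 0 in 3 of 3 same-numbered pairs. By p-value it ranked 20 of 24184 genes in that comparison. On slide 1 the difference was −1.20 and on slide 2 it was −1.15, where the 2 arrays per group gave an adjusted p of 0.0712. Leaving out each of the 12 arrays in turn kept the call every time, with adjusted p from 0.00492 to 0.0183. With only the WT and GFP arrays in the fit, limma gave an adjusted p of 0.0885.

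The mutants differed from WT in Tnrc6a by nearly the same amount. D1709N minus WT was 1.01 ± 0.12 (SE, limma adjusted p = 0.00644) and G1809R minus WT was 0.95 ± 0.12 (adjusted p = 0.00758), each higher in 3 of 3 pairs. Without the block Tnrc6a was the only member called in either comparison, 1 of 7 each, against 0.992% of all genes called higher in D1709N and 1.04% in G1809R (1.66% and 1.64% in either direction). All 12 fits that left out 1 array kept both calls among genes, with adjusted p up to 0.0394 for D1709N and 0.0400 for G1809R. Both calls were lost on slide 2 only, where limma gave 1.09 for D1709N (adjusted p = 0.0951) and 1.02 for G1809R (0.121), beside untested differences of 0.87 and 0.81 on slide 1. They were also lost with only the 2 compared groups in the limma fit (adjusted p = 0.167 for D1709N and 0.195 for G1809R). Against GFP, the difference was −0.16 for D1709N (95% confidence interval −0.42 to 0.11) and −0.22 for G1809R (−0.48 to 0.04). Both intervals exclude a fall of the size seen with WT. The comparisons share the WT or the GFP arrays, so they are not independent of each other.

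Tnrc6b codes for the second TNRC6 protein, which carries the same Argonaute-binding and deadenylase-recruiting parts. Its probe A_55_P1987534 read −1.02, −1.16 and −1.45 in D1709N, −1.07, −1.20 and −1.10 in G1809R, −1.28, −1.71 and −1.81 in WT and −0.53, −0.79 and −1.04 in GFP. The WT and GFP arrays did not overlap. The 3 G1809R arrays lay between them, and the D1709N arrays overlapped with both. WT minus GFP was −0.81 ± 0.18 (SE, limma adjusted p = 0.0462, and 0.00218 with the replicate block), lower in 3 of 3 pairs, at −0.76 on slide 1 and −0.84 on slide 2. This call rested on a narrow margin. Of the 12 fits without 1 array, only the one without WT replicate 1 kept it (0.0438), and the others gave adjusted p from 0.0574 to 0.153. In the fit of every probe its adjusted p was 0.054.

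For Tnrc6b the mutants differed from WT by 0.39 ± 0.18 in D1709N (SE, limma adjusted p = 0.394, and 0.0466 with the replicate block) and by 0.48 ± 0.18 in G1809R (0.299, and 0.0244 with the block), higher in 3 of 3 pairs in each case. Against GFP, limma gave a difference of −0.43 ± 0.18 for D1709N (adjusted p = 0.656, and 0.0667 with the block) and −0.34 ± 0.18 for G1809R (0.881, and 0.133 with the block). Both were below 0 in 3 of 3 pairs and neither was called.

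Tnrc6c codes for the third TNRC6 protein. Its probe A_55_P2133806 read 0.02, 0.42 and −0.39 in D1709N, 0.08, 0.17 and −0.61 in G1809R, 0.04, −0.27 and −0.69 in WT and 0.59, 0.08 and −0.14 in GFP. All 4 groups overlapped, and in each of them replicate 3 was the lowest. WT minus GFP was −0.48 ± 0.30 (SE, limma adjusted p = 0.547, and 0.0709 with the replicate block), lower in 3 of 3 pairs. In the fit without a block the 95% confidence interval, −1.15 to 0.19, holds 0 as well as a fall as large as that of Tnrc6b. That interval ignores the pairing by replicate number, and with the replicate block the SE was 0.16 in place of 0.30. Within an array, the Tnrc6a probe less the Tnrc6c probe was 2.20 ± 0.34 in WT and 2.89 ± 0.27 in GFP (SD, n = 3 each). The WT arrays were all lower, and an exact two-sided permutation test gave p = 0.1, the smallest that 3 arrays against 3 can give. Tnrc6a is the member with the largest difference on these same arrays, so this test is no separate evidence. It also ignores the pairing by replicate number.

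**Figure D2:**
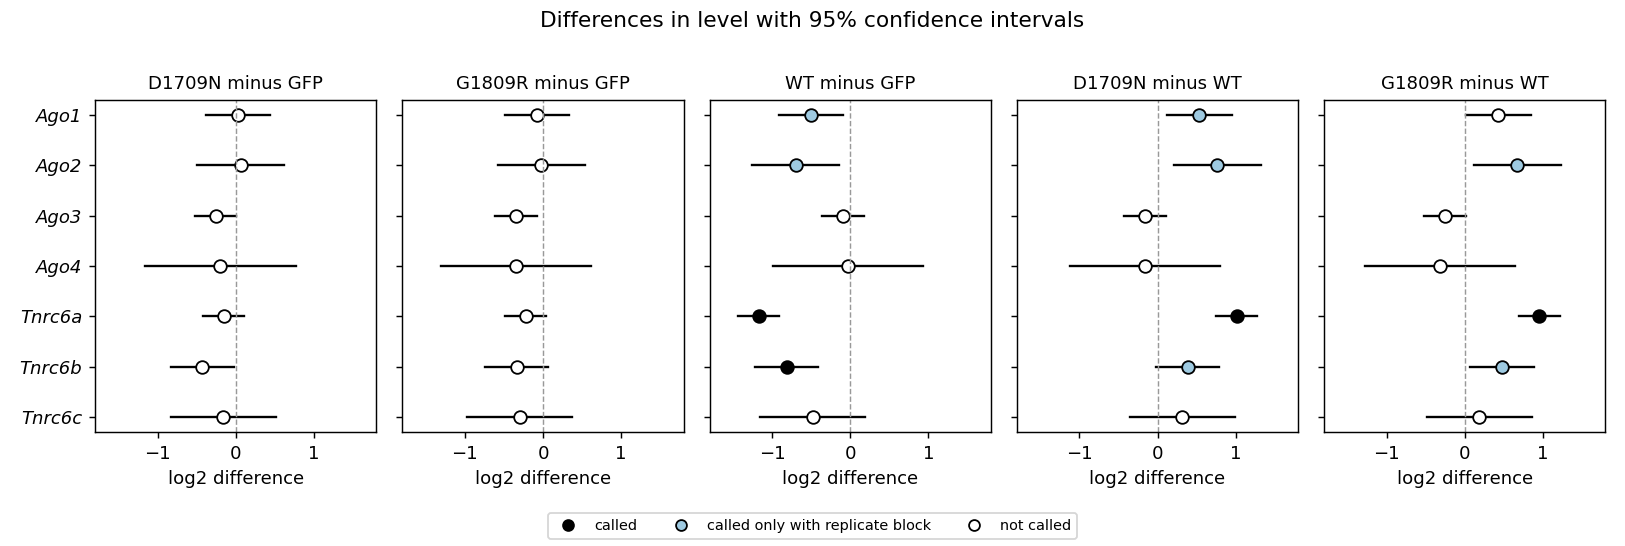
Log2 differences of the 7 genes in the 5 comparisons, each with its 95% confidence interval from limma; black points were called at an adjusted p under 0.05, blue points were called only with the replicate number as a block, and open points were not called. Tnrc6a stands at −1.17 for WT minus GFP and at 1.01 and 0.95 for the mutants minus WT, and no gene was called for a mutant minus GFP.

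Ago2 codes for the Argonaute that can slice its target. The array has 2 probes for it, and they did not give the same answer. The brighter one, A_51_P180001, read 3.13, 2.57 and 2.94 in D1709N, 2.83, 2.49 and 3.05 in G1809R, 2.50, 1.78 and 2.08 in WT and 3.19, 2.51 and 2.74 in GFP. In every replicate number WT was the lowest of the 4 groups, and the WT arrays did not overlap with the GFP or the D1709N arrays, while the highest WT array passed the lowest G1809R array by a small margin. WT minus GFP was −0.70 ± 0.25 (SE, limma adjusted p = 0.195). It was called with the replicate number as a block (0.00653) and with the slide as a block (0.0481). It lay at −0.70, −0.72 and −0.66 in pairs 1, 2 and 3. By limma, D1709N minus WT was 0.76 ± 0.25 (adjusted p = 0.191, and 0.00596 with the replicate block) and G1809R minus WT was 0.67 ± 0.25 (0.284, and 0.0103 with the block).

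The second Ago2 probe, A_55_P2002133, read 0.45, 0.27 and 0.09 in D1709N, 0.77, 0.21 and 0.07 in G1809R, 0.60, 0.27 and 0.14 in WT and 0.57, 0.17 and 0.05 in GFP. All groups overlapped, and WT was slightly above GFP in each pair. WT minus GFP was 0.08 (95% confidence interval −0.41 to 0.57; in the fit of every probe, limma adjusted p = 0.991, and 0.606 with the replicate block). The difference between the brighter and the second probe within an array was 2.68, 2.30 and 2.85 in D1709N, 2.06, 2.28 and 2.99 in G1809R, 1.89, 1.51 and 1.94 in WT and 2.63, 2.34 and 2.69 in GFP. The WT arrays were below all others in this difference, and each exact two-sided permutation test of another group against WT gave p = 0.1, the smallest possible. The files do not say which part of the Ago2 transcript each probe reads, and no cause of the difference between them was tested. With the mean of both probes as the level of Ago2, the WT minus GFP difference was −0.31 (limma adjusted p = 0.585).

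**Figure D3:**
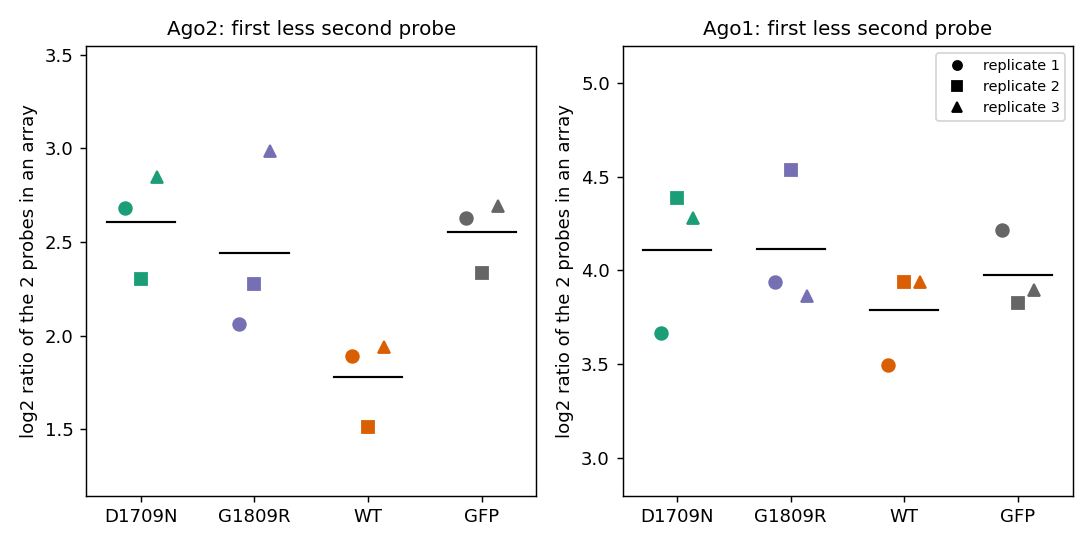
Log2 level of the brighter probe less that of the second probe on each array for Ago2 (left) and Ago1 (right); symbols are replicates 1 to 3 and bars are group means. For Ago2 the 3 WT arrays, at 1.51 to 1.94, lie below the 9 others, and for Ago1 the groups overlap.

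Ago1 codes for an Argonaute whose main role is to repress without cutting. Its brighter probe, A_52_P76402, read 0.27, 0.30 and 0.37 in D1709N, 0.10, 0.16 and 0.36 in G1809R, −0.64, −0.18 and 0.15 in WT and 0.11, 0.33 and 0.41 in GFP. The WT arrays spread over a wider range than those of the other groups, and WT replicate 3 overlapped with GFP and G1809R. WT minus GFP was −0.50 ± 0.18 (SE, limma adjusted p = 0.204, and 0.0225 with the replicate block), lower in 3 of 3 pairs. It was −0.75 on slide 1 and −0.38 on slide 2, and −0.30 without WT replicate 1, the lowest array. By limma, D1709N minus WT was 0.54 ± 0.18 (adjusted p = 0.211, and 0.0218 with the block), and G1809R minus WT was 0.43 ± 0.18 (0.374, and 0.052 with the block). Without WT replicate 1 these were 0.33 in D1709N and 0.22 in G1809R. With the slide in place of the replicate number as the block, limma called Ago1 neither for WT minus GFP (adjusted p = 0.0522) nor for D1709N minus WT (0.0530).

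The second Ago1 probe, A_55_P2184751, gave a WT minus GFP difference of −0.32 (95% confidence interval −0.92 to 0.28; in the fit of every probe, limma adjusted p = 0.748, and 0.432 with the replicate block). The groups overlapped on this probe, with means of −3.80 in D1709N, −3.90 in G1809R, −4.01 in WT and −3.70 in GFP. The difference between the 2 Ago1 probes was 3.79 ± 0.26 in WT and 3.98 ± 0.21 in GFP (SD, n = 3 each; exact two-sided permutation p = 0.6).

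Ago3 and Ago4 code for the other two Argonautes, and their genes neighbour Ago1 in the RefSeq annotation of build GRCm38.p6. The Ago3 probe, A_55_P2068922, read −2.36, −2.44 and −2.59 in D1709N, −2.58, −2.56 and −2.53 in G1809R, −2.43, −2.21 and −2.27 in WT and −2.25, −2.35 and −2.02 in GFP. WT and GFP overlapped, with a difference of −0.10 (limma adjusted p = 0.874). Both mutants lay below all GFP arrays, with differences of −0.26 in D1709N (limma adjusted p = 0.707) and −0.35 in G1809R (0.58), and neither difference was called with the replicate block (0.216 and 0.124). The tested Ago4 probe, A_55_P2113071, read −3.82, −4.93 and −4.25 in D1709N, −3.73, −4.98 and −4.75 in G1809R, −3.67, −4.15 and −4.69 in WT and −3.61, −4.10 and −4.71 in GFP. In every group the slide 1 array was the brightest, and all groups overlapped. WT minus GFP was −0.03. In the limma fit without a block its 95% confidence interval, −0.99 to 0.93, was too wide to exclude a change of the size seen for Tnrc6b. That fit ignores the pairing by replicate number. With the replicate block the SE fell from 0.43 to 0.23, and the difference was not called (limma adjusted p = 0.942). The other Ago4 probe, A_52_P27122, read between −8.60 and −4.33 over the 12 arrays, and only GFP replicate 3, its brightest array, was well above background.

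Against GFP, no member was called in D1709N or G1809R, with or without the replicate block. In those comparisons limma called 0.0496% of all genes in D1709N and 0.0124% in G1809R, and 4.25% and 3.74% with the block. By limma, 1 member of 7 in each had an unadjusted p under 0.05, as did 1744 of the 24184 genes (7.21%) in D1709N and 1605 (6.64%) in G1809R. It was Tnrc6b in D1709N (limma unadjusted p = 0.0413, adjusted p = 0.656) and Ago3 in G1809R (limma unadjusted p = 0.0153, adjusted p = 0.58). The arrays did not overlap for 1 member in D1709N and 2 in G1809R, all lower than GFP, against 5.83% and 4.98% of all genes. Against WT and with the block, 4 of 7 members were called higher in D1709N (7.12% of all genes higher, 15.5% in either direction) and 3 of 7 in G1809R (6.36% and 12.7%). Tnrc6a, Tnrc6b and Ago2 were called in both, and Ago1 in D1709N. Without overlap between the arrays were 3 members higher in D1709N than in WT (Tnrc6a, Ago1 and Ago2), against 10% of all genes, and 0 lower, against 7.58%. In G1809R 2 members were so higher (Tnrc6a and Tnrc6b, against 8.27%) and 1 lower (Ago3, against 6.36%).

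Between the mutants no member was called, and limma called 0% of all genes with or without the block. Without the block, 0 members and 65 genes had an unadjusted p under 0.05. The arrays of the mutants overlapped for all 7 members, while they did not for 1.5% of all genes lower in D1709N and 0.959% higher. The 95% confidence interval of D1709N minus G1809R was −0.20 to 0.33 for Tnrc6a and −0.50 to 0.31 for Tnrc6b. For Ago2 it was −0.47 to 0.65.

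The CCR4-NOT deadenylase is the complex that TNRC6 proteins recruit. In the WT against GFP comparison 2 of its 15 measured genes, TOB and BTG adaptors included, were called lower and 0 higher. Over all genes 1.76% were called lower and 1.19% higher. The median of the list was −0.23 against 0.04 over all genes. Both called CCR4-NOT genes code for catalytic subunits of the same type. All 15 had a difference below 0 with WT, where 43.3% of all genes did, and 11 and 10 of the 15 did in D1709N and G1809R against GFP (45.3% and 40.3% of all genes). The genes of a list are not independent, and WT, D1709N and G1809R share the GFP arrays. Cnot6 averaged 4.31 in WT and 5.22 in GFP, a difference of −0.91 ± 0.14 (SE, limma adjusted p = 0.0107), and Cnot6l averaged 2.55 in WT and 3.27 in GFP, a difference of −0.72 ± 0.14 (0.0313). The Cnot6 call was lost without GFP replicate 1 (0.0506), and the Cnot6l call was kept in 3 of the 12 fits without 1 array. Cnot6 was higher in both mutants than in WT, by 0.69 in D1709N (limma adjusted p = 0.0401) and 0.75 in G1809R (0.0275), and with 1 array left out these calls were kept in 1 and 6 of 12 fits. With the replicate block, 5 of the 15 were called lower with WT (Cnot6, Cnot6l, Cnot1, Cnot4 and Btg2), beside 8.6% of all genes. With it, the calls against GFP were Btg2 in D1709N (−0.55, limma adjusted p = 0.555, and 0.0111 with the block) and Btg1 and Btg2 in G1809R (−0.57 and −0.53, adjusted p = 0.311 and 0.647, and 0.0414 and 0.0155 with the block), all lower. Genes of this and the following lists that were called only with the block were named after their values were seen.

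Among the other steps of silencing, few genes were called with WT. Over all genes 1.76% were called lower and 1.19% higher, and with the replicate block 8.6% and 9.18%. Of 7 genes for PAN2-PAN3 and poly(A)-binding proteins, 0 were called in either direction (median −0.02). Those with the smallest p were Pan2, the catalytic subunit (−0.63 ± 0.21 SE, limma adjusted p = 0.156, and 0.00319 with the replicate block), and Pan3, its partner (−0.53 ± 0.18, 0.182, and 0.00638 with the block). With the block Pabpc4, a poly(A)-binding protein, was called higher (0.28, limma adjusted p = 0.254, and 0.0476 with the block). Of 21 decapping and decay genes 0 were called (median −0.13), and Pat1b, a decapping scaffold, had a difference of −0.49 (limma adjusted p = 0.0717, and 0.0062 with the block). The block added 2 other calls, Lsm3, of the LSM ring that binds shortened transcripts, at −0.39 (limma adjusted p = 0.110, and 0.0174 with the block) and Dcp1b, a decapping cofactor, at 0.33 (0.257, and 0.0431 with the block). Of 6 genes for translational repression 1 was called lower (median −0.13). It was Gigyf1, which partners the cap-binding protein 4EHP, at −1.14 ± 0.26 (SE, limma adjusted p = 0.0469), and this call was kept in 1 of 12 fits without 1 array.

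Of 20 genes for Argonaute partners and regulators, 1 was called lower with WT and 0 higher (median −0.09), against 1.76% and 1.19% of all genes. It was Fmr1, the RNA-binding protein lost in fragile X syndrome, which averaged 1.71 in WT and 2.53 in GFP (−0.82 ± 0.17 SE, limma adjusted p = 0.0382, kept in 2 of 12 fits without 1 array). Trim71, an RNA-binding protein and let-7 target named after its values were seen, had a difference of −1.96 (limma adjusted p = 0.0646, and 0.0132 with the replicate block). With the block 4 of the 20 were called lower, beside 8.6% of all genes. Besides Fmr1 and Trim71 they were Ankrd52 (−0.66, limma adjusted p = 0.133, and 0.00337 with the block) and Csnk1a1 (−0.41, 0.156, and 0.0488 with the block). Of 9 genes for the HSP90 and HSP70 chaperones that open Argonaute for its guide, 0 were called with or without the block (median 0.08), and Ahsa1 and Hsp90ab1 had differences of 0.20 and 0.15 (limma adjusted p = 0.532 and 0.542). In D1709N and G1809R against GFP, 0 genes of the CCR4-NOT, PAN2-PAN3, decapping, translational repression, Argonaute partner and chaperone lists were called without the block. With it, besides the BTG genes above, only Fmr1 was called among these lists, at −0.64 in D1709N (limma adjusted p = 0.360, and 0.0135 with the block) and −0.57 in G1809R (0.513, and 0.0222 with the block).

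**Figure D4:**
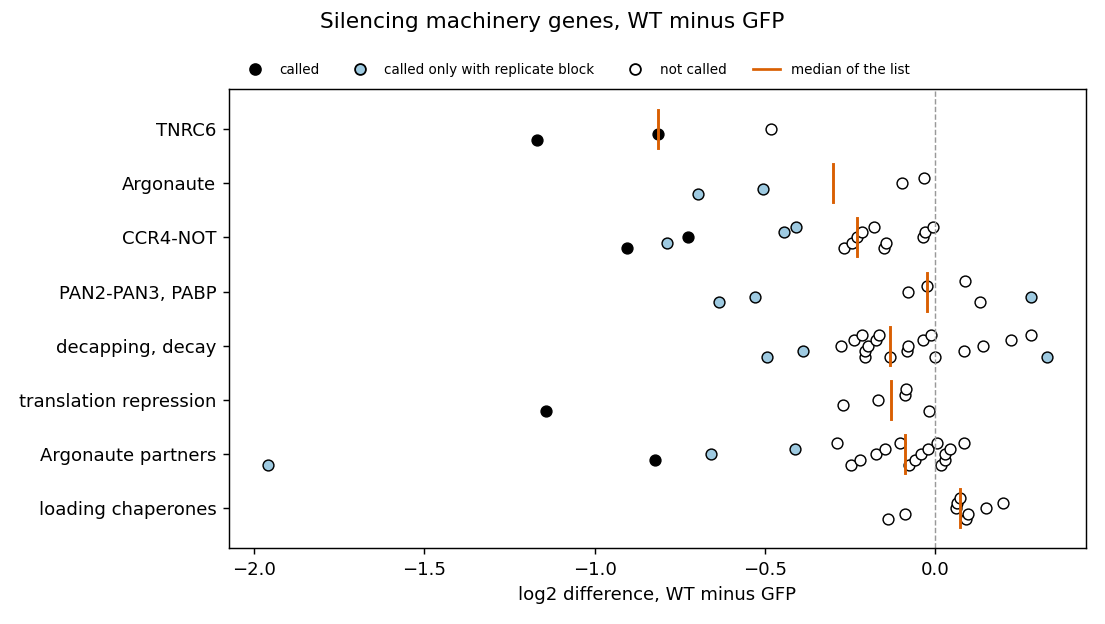
Log2 difference of WT minus GFP for each measured gene of the TNRC6 and Argonaute families and of 6 lists of silencing factors; black points were called at an adjusted p under 0.05, blue points only with the replicate block, and orange lines mark each list's median. All 15 CCR4-NOT genes lie below 0, as do 43.3% of all genes, and the chaperone genes lie on both sides of it.

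Upstream of Argonaute, 4 of 15 genes for miRNA processing were called lower with WT and 0 higher (median −0.11), against 1.76% and 1.19% of all genes. Lin28b and Lin28a, which block let-7 maturation and are themselves let-7 targets, had differences of −2.70 and −2.55 (limma adjusted p = 0.00173 and 0.00368). Tarbp2, the double-stranded RNA-binding partner of DICER1, averaged 4.70 in WT and 5.27 in GFP (−0.57 ± 0.10 SE, limma adjusted p = 0.0192). Dicer1 had a difference of −0.86 by its mouse probe (limma adjusted p = 0.035). The Tarbp2 and Dicer1 calls were kept in 7 and 4 of 12 fits without 1 array. With the replicate block 2 of the 15 were called higher with WT and 4 lower, beside 9.18% and 8.6% of all genes. The 2 higher ones were Adar, which edits double-stranded RNA (1.72, limma adjusted p = 0.0627, and 0.00344 with the block), and Prkra, another double-stranded RNA-binding partner of DICER1 (0.26, 0.324, and 0.0445 with the block). Against GFP, no gene of this list was called in either mutant without the block, and with it limma called Lin28b lower in D1709N (−0.76, block adjusted p = 0.0408) and in G1809R (−0.89, 0.0291), and Adar higher in G1809R (1.26, 0.0405). A list of PIWI genes, the germline relatives of Argonaute, and of germline factors that work with them had 3 of 6 genes measured (Piwil2, Mael and Ddx4). With or without the block 0 were called, and Piwil1 and Tdrd1 were well above background on no array.

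Cell cycle genes were also lower with WT. Of 12 such genes 8 were called lower with WT than with GFP, against 1.76% of all genes. With the replicate block 10 were, against 8.6%. In D1709N and G1809R 7 and 8 were called higher than in WT, against 0.992% and 1.04% of all genes. Against GFP 0 were called in either mutant, and with the block 1 was called higher in each. The genes called lower with WT at the smallest p were Ccna2, a cyclin (−1.15), Cdc25a, a phosphatase that activates cyclin-dependent kinases (−1.20), and Bub1, a mitotic checkpoint kinase (−0.97). The log2 of the summed levels of the 12 genes was 7.33 to 7.49 in D1709N, 7.38 to 7.58 in G1809R, 6.71 to 6.85 in WT and 7.33 to 7.47 in GFP, so that the 3 WT arrays were the lowest. Of 13 interferon-stimulated genes, 3 were called higher in WT than in GFP (1.19% of all genes), and 0 in D1709N or G1809R against GFP. With the replicate block these counts were 4 for D1709N, 11 for G1809R and 12 for WT. Over all genes the block called 4.25% and 3.74% in the mutants, in either direction, and 9.18% higher in WT. The log2 of the summed level of the 13 genes was 5.38 to 7.42 in D1709N, 5.94 to 8.03 in G1809R, 5.96 to 8.27 in WT and 3.63 to 5.71 in GFP. The part of either group of genes in the Tnrc6a and Tnrc6b differences was not tested.

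The genes whose levels followed each member most closely over the 12 arrays are given as a description, by Pearson's r with the member's probe. Arrays share their slide and replicate number, so these are not 12 independent points. For Tnrc6a they were Arid3a (0.986), Mfhas1 (0.977) and Sgo1 (0.977), and for Tnrc6b Rhobtb3 (0.972), Depdc1b (0.964) and Igdcc3 (0.954). All 6 were called lower with WT than with GFP, with Arid3a at −1.86 (limma adjusted p = 0.00211). They were picked for following Tnrc6a or Tnrc6b over these same arrays, so these calls are no separate evidence. For Ago2 they were Kmt5a (0.974), Kmt2d (0.957) and Fam110a (0.954), for Ago1 Capn7 (0.959), Plekha8 (0.951) and Tmem123 (0.951), and for Tnrc6c Ythdc1 (0.965), Gigyf2 (0.963) and Ctc1 (0.958). The closest genes had an r of 0.938 for Ago4 (Tbc1d30) and 0.811 for Ago3 (Atxn1). Among the members themselves, r was 0.81 between Tnrc6a and Tnrc6b, 0.76 between Ago2 and Tnrc6a and 0.72 between Ago2 and Tnrc6b, while Ago3 had an r between −0.27 and 0.03 with the 6 others.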

How the data were processed

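Per the file headers, the authors read the 12 single-colour arrays with Agilent Feature Extraction 11.0.1.1, which gave the deposited background-subtracted intensity per spot and flags of 0 or 1 for background, saturation and outliers. Raw median intensities were deposited beside it. The deposited value table is on a log2 scale. Its columns have nearly equal medians, and its normalization is not given in the sources. Members and gene lists were chosen with earlier results of these data known.

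Control spots (3671) were left out, spots of a probe were averaged, and log2 intensity less the array's 75th percentile was taken. A probe passed if 1 or more groups had it well above background on all their arrays. Outlier marks on every spot of a probe on some array removed 287 probes, and 0 were saturated. Probes were named through RefSeq accessions. Each gene was tested through its probe with the highest mean, in 1 limma 3.58.1 fit (R 4.3.3, lmFit and eBayes) of all 12 arrays with no block, and p-values were adjusted over 24184 genes. A second fit held all 33024 kept probes. Scripts were tested on simulated data.

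Samples with the same replicate number deviated together from their group means (r from 0.601 to 0.853 over 18 pairs, against −0.675 to 0.197 for other numbers), so the numbers pair the samples. Blocked values stand beside member results, and list counts against GFP, where they change the call. Alternatives were quantile normalization, median centring, normexp, other filters, slide and replicate blocks, slide 2 alone, slide 1 alone (with no test), 2 groups alone, the mean of a gene's probes, the deposited table and leaving out each array.

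All members were named with every probe. Of the silencing, miRNA processing and cell cycle lists, up to 3 genes called in WT minus GFP with the smallest p were named. Where none was called, the 1 or 2 with the smallest p were named. Dicer1 was named besides, as the gene knocked out in the line. The interferon, PIWI and cell type marker lists did not follow this rule. For each member the 3 genes of highest correlation were named, except that Ago3 and Ago4 have only the first.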

Additional observations from a re-analysis of the deposited data

How the results depend on the processing

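The planned background correction from mean spot signals was not run, since the files used here hold no such column. Normexp on the median signals (offset 50) was chosen after seeing the data. Precision is limited by 3 arrays per group and by how little the Ago4 and second Ago1 probes exceed background. Counts of called genes are given for WT minus GFP, D1709N minus GFP, G1809R minus GFP, D1709N minus WT and G1809R minus WT, in that order. They were 713, 12, 3, 402 and 397 in the reported fit, 4300, 1027, 904, 3759 and 3064 with the replicate block, and 2112, 97, 63, 1407 and 1206 with the slide block. They were 206, 2, 1, 55 and 68 with no filter on dim probes, 3, 1, 1, 2 and 12 on slide 2 only, and 3, 0, 1, 0 and 0 with only the 2 groups compared. D1709N minus GFP had 7 under normexp and 3 with the mean of a gene's probes, where G1809R minus GFP had 1. Leaving out 1 array gave 129 to 650, 2 to 7, 1 to 2, 41 to 424 and 66 to 366 genes, with the lowest counts without GFP replicate 3 for WT minus GFP, without D1709N replicate 2 for D1709N minus WT and without G1809R replicate 2 for G1809R minus WT. D1709N minus G1809R had 0 in each of these fits.

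In the fit of every probe, 1 member probe was called for WT minus GFP, for D1709N minus WT and for G1809R minus WT, beside 2.3%, 1.28% and 1.21% of all probes. For WT minus GFP it was 2 under quantile normalization, median centring, normexp, the stricter filter, the slide block and the deposited table, where 2.05% to 7.66% of all probes were called, and 4 with the replicate block (15.8%). With that block it was 3 for D1709N minus WT (13.8%) and for G1809R minus WT (10.6%), and with the slide block 2 for D1709N minus WT (5.08%). It was 0 in all 3 comparisons on slide 2 only (0.0149%, 0.0179% and 0.0119% of probes) and with only the 2 groups compared (0%), and 0 for D1709N minus WT (0.0415%) and G1809R minus WT (0.0469%) with no filter. Leaving out 1 array gave 0 to 1 for D1709N minus WT (0 without D1709N replicate 2, 0.0965% of probes) and 0 to 1 for G1809R minus WT (0 without G1809R replicate 2, 0.0802%). The causes were not tested.

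The sign changed in 28 recomputed member values, with 0 of them called in either fit. For Ago4, normexp gave 0.045 in WT minus GFP, 0.047 in D1709N minus GFP and 0.00229 in D1709N minus WT, quantile normalization gave 0.18 in D1709N minus WT and 0.039 in G1809R minus WT, and the deposited table gave 0.17 and 0.043 there. On slide 2 only, D1709N minus GFP was −0.030 for Ago1 and 0.042 for Tnrc6c, and G1809R minus GFP was 0.15 for Ago2. The mean of a gene's probes gave −0.034 for Ago1 in D1709N minus GFP and 0.032 for Ago2 in G1809R minus GFP. Over the fits without 1 array, Ago4 ranged from −0.32 to 0.23 in WT minus GFP, −0.48 to 0.10 in D1709N minus GFP and −0.42 to 0.13 in D1709N minus WT. In D1709N minus GFP, Ago1 ranged from −0.054 to 0.095, Tnrc6c from −0.36 to 0.044 and Ago2 from −0.087 to 0.26. Ago2 ranged from −0.18 to 0.17 in G1809R minus GFP, its second probe from −0.056 to 0.23 in WT minus GFP, and Tnrc6c from −0.0080 to 0.43 in G1809R minus WT.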
